A study of Mus musculus with 15 samples.

Results

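The nuclear genes of respiratory complex I were followed through fat cell differentiation of 3T3-L1 cells, a mouse preadipocyte line. Members were all annotated genes with a mouse symbol starting with Nduf, leaving out pseudogenes. GENCODE vM21 lists 51 such genes. Of these, 4 are processed pseudogenes and 1, Ndufb1-ps, is annotated as a non-coding RNA, and these 5 were not used here. The other 46 are protein coding, and all 46 were found among the 25700 genes of the count files, had counts and passed the filter on low counts. They comprise 7 core subunits and 10 accessory subunits of the peripheral arm, 19 accessory subunits of the membrane arm, 8 assembly factors and 2 genes, Ndufa4 and Ndufa4l2, whose proteins are not complex I subunits despite the symbol.

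RNA was sequenced from 15 libraries in 5 groups of 3: cells overexpressing MIGA2-GFP at day 6, cells depleted of MIGA2 (MIGA2-KO) at day 6, wild-type (WT) cells at day 6, MIGA2-KO cells at day 0, and WT cells at day 0. All groups are 3T3-L1 cells, and the WT cells carry neither modification. MIGA2 (mitoguardin 2) sits in the outer membrane of mitochondria. All cells were held at confluence before day 0, when medium with dexamethasone, IBMX and insulin was added, and the day 6 cells later went through medium with insulin alone and medium with serum alone. The labels do not say how MIGA2 was depleted or the fusion protein expressed, whether a line is 1 clone, or whether the 3 libraries of a group come from cultures grown apart. P-values therefore cover the spread of these libraries and no more, which may be technical. That spread was estimated jointly over all 15 libraries, not from the compared groups alone. A day 0 sample of MIGA2-GFP cells was not analysed here.

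Complex I, or NADH:ubiquinone oxidoreductase, is the largest enzyme of the mitochondrial respiratory chain. Its peripheral arm in the matrix takes electrons from NADH through a flavin and a chain of iron-sulfur clusters to ubiquinone, and its membrane arm pumps protons. The membrane arm's own core subunits are encoded by mitochondrial DNA (the mt-Nd genes), whereas all other subunits and the factors that assemble them come from the nucleus. White fat cells are known to build up mitochondria as they differentiate.

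The deposited libraries held between 10748668 and 26003871 counts each, and WT cells at day 0 were sequenced deepest. Levels are given as CPM, the library-scaled count unit of edgeR, with TMM factors. Miga2 mRNA checks the labels: it stood at 166, 155 and 158 CPM in MIGA2-GFP, 926, 74.5 and 70.0 CPM in MIGA2-KO and 145, 159.5 and 182 CPM in WT cells at day 6, and at 17.2, 21.4 and 22.6 CPM in MIGA2-KO and 15.6, 17.8 and 13.6 CPM in WT cells at day 0. The library labelled MIGA2-KO day 6 replicate 1 therefore goes against its label, the level in MIGA2-KO cells at day 0 was not below that in WT cells, and the MIGA2-GFP libraries lay within the range of WT cells at day 6. Counts of a gene do not show whether its mRNA can be translated. The summed level of 8 adipocyte markers was 19700 to 21500 CPM in MIGA2-GFP, 5840 to 9350 CPM in MIGA2-KO and 29800 to 43200 CPM in WT cells at day 6, against 26.1 to 27.6 CPM in MIGA2-KO and 32.2 to 49.8 CPM in WT cells at day 0. The sum of 7 preadipocyte and fibroblast markers was 2860 to 3060, 4450 to 8760 and 2180 to 2490 CPM in MIGA2-GFP, MIGA2-KO and WT cells at day 6, with none of the 7 at 0 in any group. At day 0 it was 9060 to 10700 CPM in MIGA2-KO and 9120 to 13000 CPM in WT cells. Single markers did not all follow these sums (edgeR, adjusted p under 0.05). Against WT cells at day 6, 2 of the 7 were higher and 3 lower in MIGA2-GFP cells, and 3 higher and 1 lower in MIGA2-KO cells. Of the 8 adipocyte markers, 4 were lower and 0 higher in MIGA2-GFP cells, and all 8 were lower in MIGA2-KO cells. Sums of 5 macrophage markers and of 4 endothelial markers did not pass 5.42 and 1.22 CPM in any library, and the leukocyte marker Ptprc was at 0 in all 5 groups. The sum of 5 skeletal muscle markers was 49.3 to 55.2 CPM in MIGA2-GFP, 15.7 to 54.3 CPM in MIGA2-KO and 22.2 to 37.0 CPM in WT cells at day 6, against 9.47 to 10.6 CPM in MIGA2-KO and 11.5 to 18.1 CPM in WT cells at day 0. Most of it was Des, which encodes the filament protein desmin, except in MIGA2-KO day 6 replicate 3, where Acta1 and Ckm stood at 22.6 and 16.2 CPM; Myod1 and Myog were at 0 in all day 6 groups. The part of these markers in the results was not tested. In such bulk samples, fewer differentiated cells and less RNA per cell cannot be told apart.

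Replicates were uneven in WT cells, and in a way that touches these genes. Nduf transcripts are short: the median over the 46 members was 977 nucleotides, against 2990 over 12261 tested genes with a known length, and 41 members lay in the shortest of 4 equal groups of genes by length (up to 1903 nucleotides). Another 2 lay in the next group, 3 in the one after that, and 0 among the longest. WT day 0 replicate 1 held the highest level of its group for 44 of 46 members, and WT day 6 replicate 1 the lowest of its group for 44 of 46, with Ndufaf4 and Ndufs1 the exceptions in both. Over all tested genes, the deviation of a library from its group mean correlated with log2 transcript length at -0.61 in WT day 0 replicate 1 and 0.49 in WT day 6 replicate 1. The members' median deviation was 0.561 (log2) in the first of these libraries and -0.428 in the other. The median coefficient of variation over members was 3.76% in MIGA2-GFP, 13.2% in MIGA2-KO and 24.5% in WT cells at day 6, and 4.93% in MIGA2-KO and 36.9% in WT cells at day 0. The fit shares 1 estimate of spread per gene over all groups. P-values and SEs of comparisons with WT cells thus lean partly on the more even groups and may understate the WT spread. Because of the trends with length, counts of called members below were also taken with offsets. These remove, library by library, the smooth trend of counts with transcript length and GC content. They are set against the mean of all 15 libraries, so they also remove differences between groups that run with length or GC content, whatever their source. The same counts were also taken without replicate 1 of WT day 0, WT day 6 and MIGA2-KO day 6, the 3 libraries that stood apart. The WT libraries among these were the highest at day 0 and the lowest at day 6 for most members. Leaving them out therefore enlarges the rise in WT cells and the day 6 differences from WT cells by the choice itself. The library labelled MIGA2-KO day 6 replicate 1 was the highest of its group for 35 of 46 members. Leaving it out lowers MIGA2-KO levels at day 6 for most members, also by the choice itself. Counts without these 3 libraries, or any 1 of them, are no separate support for those results. The same holds for day 6 differences from MIGA2-KO cells and for the difference between the lines. What gave rise to the trends was not tested.

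**Figure D1:**
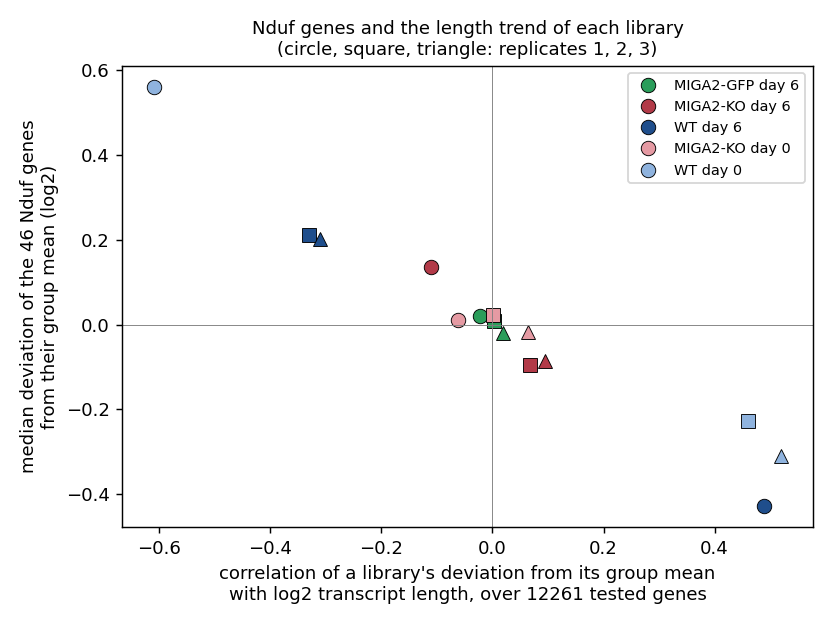
Each point is 1 of 15 libraries. The horizontal axis is the correlation, over 12261 genes, of the library's deviation from its group mean with log2 transcript length, and the vertical axis is the median deviation of the 46 Nduf genes from their group mean (log2). WT day 0 replicate 1 sits at the upper left (-0.61 and 0.561) and WT day 6 replicate 1 at the lower right (0.49 and -0.428), while the MIGA2-GFP and MIGA2-KO day 0 libraries lie near the centre.

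During differentiation 25 of 46 Nduf genes rose in MIGA2-KO cells, where 23.3% of all genes tested did, and 42 rose in WT cells, where 31.7% did (edgeR, adjusted p under 0.05). The rise was smaller in MIGA2-KO than in WT cells for 25, against 13.6% of all genes with a difference called in that direction. The 46 genes took 0.719 ± 0.0052% of all counts in MIGA2-GFP, 0.395 ± 0.0529% in MIGA2-KO and 0.949 ± 0.192% in WT cells at day 6, against 0.253 ± 0.002% in MIGA2-KO and 0.404 ± 0.124% in WT cells at day 0 (mean ± SD, n = 3 each, as for all means below). The day 6 means stood in the order MIGA2-KO, MIGA2-GFP, WT from low to high for 43 of 46 members, all but Ndufa4l2, Ndufaf5 and Ndufc2. The map of levels by library shows the 5 groups as blocks, with WT day 6 replicate 1 paler than the other WT day 6 libraries and WT day 0 replicate 1 less blue than its group. In the 7 comparisons below, Ndufa5, Ndufb3, Ndufs4, Ndufv2 and Ndufaf7 were called in all, and Ndufaf8 in none. Where a count of rises or falls among the 46 is given as 0, DESeq2 also called 0, and edgeR at an unadjusted p under 0.05 gave 0 as well, except for 1 fall in MIGA2-KO cells over time (Ndufa4l2).

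**Figure D2:**
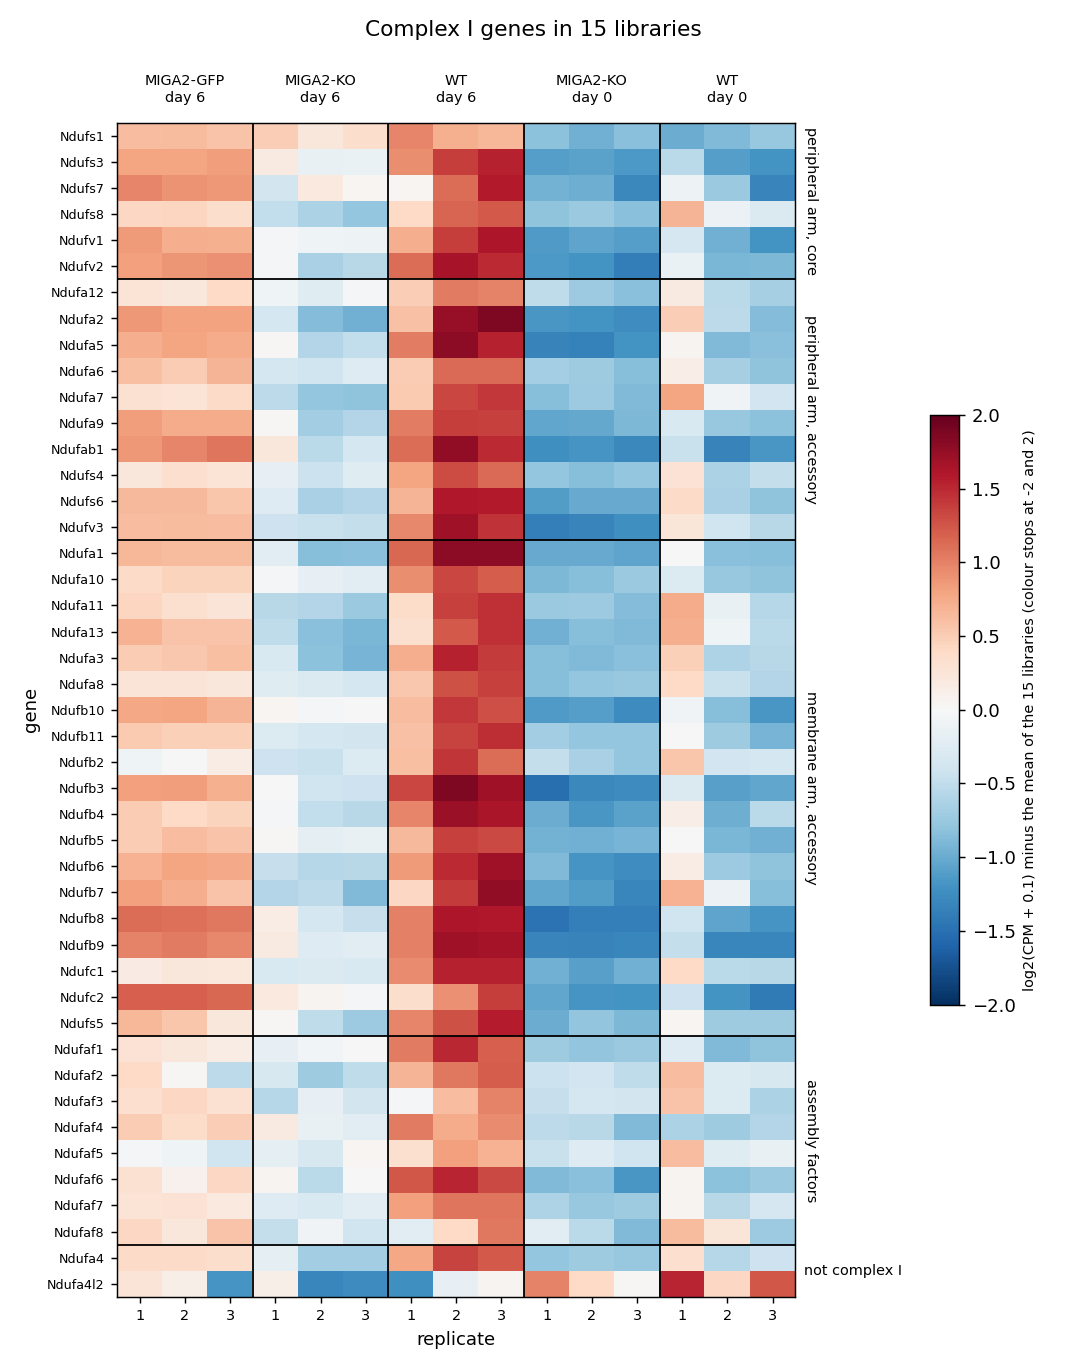
Rows are 45 Nduf genes by role and columns the 15 libraries by group. Colour is log2(CPM + 0.1) minus the gene's mean over all 15 libraries, red above and blue below. Subunit rows are reddest in WT cells at day 6, paler red in MIGA2-GFP cells, near white or light blue in MIGA2-KO cells at day 6 and blue at day 0; Ndufa4l2 at the bottom runs the other way over time.

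In MIGA2-KO cells at day 6 against day 0, 25 of 46 members rose and 0 fell, with a median of 0.563, where 23.3% of the 12279 genes tested rose, 21.0% fell and the median was 0.0175 (edgeR quasi-likelihood test, adjusted p under 0.05, as for all calls below). Of the core subunits 6 of 7 rose, with a median of 1.02. Accessory subunits rose in 6 of 10 of the peripheral and 9 of 19 of the membrane arm, with medians of 0.565 and 0.567, and assembly factors in 4 of 8. With the offsets 23 rose and 1 fell, where 3162 genes rose over all, against 2862 without offsets. Leaving out the library labelled MIGA2-KO day 6 replicate 1, 20 rose and 1 fell, where 2504 genes rose over all. Without the 3 libraries that stood apart 34 rose and 1 fell, where 3900 of 12398 genes rose. Ndufa4l2 was the 1 in each case.

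In WT cells at day 6 against day 0, 42 of 46 members rose and 1 fell, with a median log2 fold change of 1.64, where 31.7% of all genes tested rose, 33.1% fell and the median was -0.0413. All 7 core subunits rose, as did all 10 accessory subunits of the peripheral arm and all 19 of the membrane arm, with medians of 1.68, 1.60 and 1.72. Of 8 assembly factors 5 rose, with a median of 1.09. The WT day 6 and day 0 levels did not overlap, with day 6 the higher, for 37 members, against 28.7% of all genes. With the length and GC offsets 38 rose and 1 fell, where 4123 of 12279 genes rose. Without the 3 libraries that stood apart 45 rose and 0 fell, where 4884 of 12398 genes rose.

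Whether the change over time differed between MIGA2-KO and WT cells was tested directly. A difference was called for 25 of 46 members, all with the smaller rise in MIGA2-KO cells, at a median of -0.984, where 13.6% of genes were called in that direction and 13.7% in the other and the median was 0.0219. The called members were 5 of 7 core subunits, 5 of 10 and 10 of 19 accessory subunits, 4 of 8 assembly factors and Ndufa4. Among the members, the change was larger in WT cells for 45 of 46, all but Ndufa4l2. The 2 changes rest on different libraries, and over the 46 genes they correlated at a Pearson r of 0.891, a description of genes that share libraries and short transcripts. The count was 29 with the offsets and 13 on total counts without TMM. Over all genes 2330 and 812 were called in that direction in these fits, against 1668 in the fit above. The count was 42 without WT day 0 replicate 1 and 40 without WT day 6 replicate 1, where 2512 and 2096 genes were called. It was 17 to 25 without any 1 of the other libraries of these groups, where 1232 to 1858 genes were called. Without the 3 libraries that stood apart it was 44, where 3669 of 12398 genes were called in that direction.

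**Figure D3:**
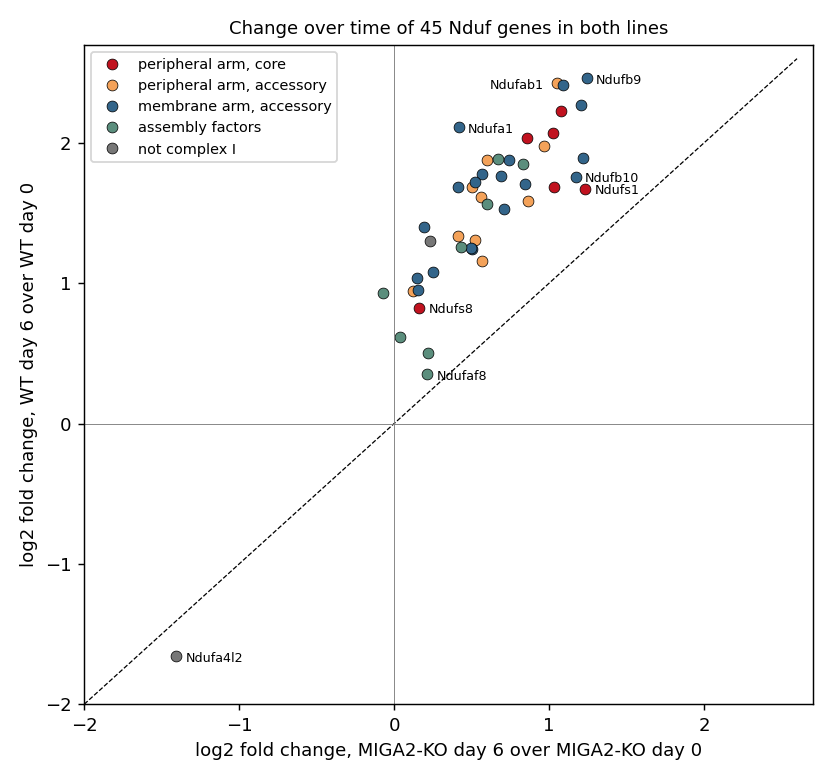
Each point is 1 of 45 Nduf genes, coloured by role. The horizontal axis is the log2 fold change of MIGA2-KO cells at day 6 over MIGA2-KO cells at day 0 and the vertical axis that of WT cells at day 6 over WT cells at day 0; the dashed line marks equal change. All genes but Ndufa4l2 lie above the line; Ndufs1, at 1.24 and 1.67, is among the nearest to it of the subunits, and Ndufa1, at 0.42 and 2.11, is far from it.

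At day 6, MIGA2-KO cells held less complex I mRNA than WT cells. Of 46 members 44 were lower and 0 higher, with a median log2 fold change of -1.52, where 31.5% of genes were lower, 29.2% higher and the median was -0.0101. The lower ones were all 36 subunits of both arms, 7 of 8 assembly factors and Ndufa4. MIGA2-KO levels lay below WT levels without overlap for 43 members, against 31.7% of all genes, and the exceptions were Ndufa4l2, Ndufaf8 and Ndufs7. Over all genes this contrast runs with transcript length: the median log2 fold change was -0.646, -0.139, 0.161 and 0.509 in the 4 length groups, shortest first. The members' median of -1.52 stood below that of the shortest group. With the offsets 37 of 46 were lower, with a median of -0.719, and 0 were higher, where 3614 genes were lower over all. With offsets fitted within each group, added after seeing the data, 45 were lower, with a median of -1.52. Those offsets leave differences between groups in place, so they do not address the trend of this contrast with length. Leaving out the library labelled MIGA2-KO day 6 replicate 1, the count stayed at 44 with a median of -1.62, where 3852 genes were lower over all. Without the 3 libraries that stood apart the count was 45, with a median of -1.74, where 4602 of 12398 genes were lower. Both choices themselves favour a larger difference, as given above. The sum of adipocyte markers was lower in the same MIGA2-KO libraries, as given above, and its part in the result was not tested.

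**Figure D4:**
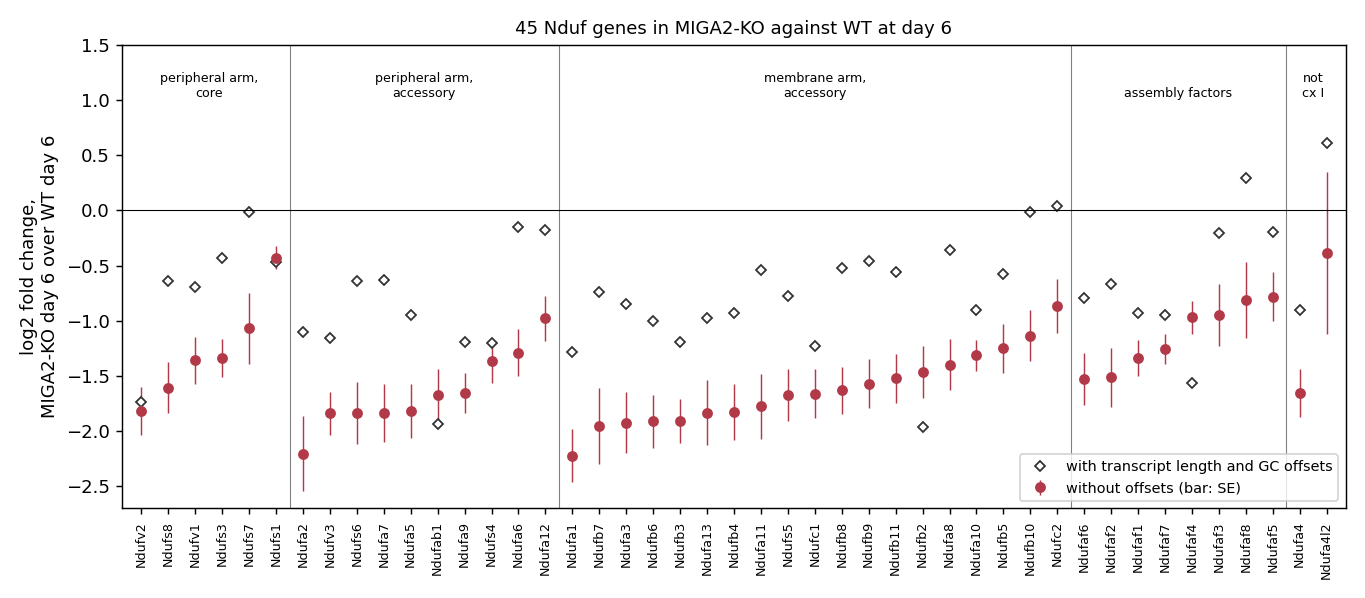
Log2 fold change of MIGA2-KO cells at day 6 over WT cells at day 6 for 45 Nduf genes, by role and size. Red points and bars are the estimate and its SE without offsets, and open diamonds the estimate with transcript length and GC offsets. All red points lie below 0, from -2.22 for Ndufa1 to -0.39 for Ndufa4l2; most diamonds lie nearer 0, and Ndufa4l2, Ndufaf8 and Ndufc2 lie above 0.

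MIGA2-GFP cells stood between the other day 6 groups. Against WT cells, 29 of 46 members were lower and 0 higher, with a median of -0.655, where 18.9% of genes were lower, 16.5% higher and the median was 0.00226. The 2 groups did not overlap, with MIGA2-GFP the lower, for 31 members, against 25.1% of all genes. Of the core subunits 3 of 7 were lower, of the accessory subunits 7 of 10 and 12 of 19, and of the assembly factors 6 of 8. The count moved with the libraries used: it was 15 to 18 when any of the MIGA2-GFP libraries or WT day 6 replicate 2 or 3 was left out. Over all genes 1590 to 1881 were lower in these fits, against 2318 with all libraries. Without WT day 6 replicate 1 the count was 40, and 2838 genes were lower over all. Without the 3 libraries that stood apart the count was 42, where 3826 of 12398 genes were lower. With the offsets 16 were lower and 1, Ndufc2, was higher, and the median was -0.216. Of the 12279 genes tested, 2542 were then lower and 2448 higher. Without offsets this contrast too ran with transcript length. All genes had medians of -0.346 in the shortest and 0.305 in the longest length group. Against MIGA2-KO cells, 35 of 46 members were higher in MIGA2-GFP cells and 0 lower, with a median of 0.857, where 25.4% of genes were higher, 22.5% lower and the median was 0.0148. The offsets left 32 higher and 0 lower, with a median of 0.461. Once the library labelled MIGA2-KO day 6 replicate 1 was left out 34 were higher, where 3037 genes were over all. Without the 3 libraries that stood apart 42 were higher, where 4099 of 12398 genes were.

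At day 0, before the differentiation medium acted, MIGA2-KO cells had 18 of 46 members lower than WT cells and 0 higher, with a median of -0.538, where 17.7% of genes were lower, 16.1% higher and the median was -0.0298. The levels did not overlap, with MIGA2-KO the lower, for 27 members, against 25.6% of all genes. The count moved with the libraries used. It was 4 without WT day 0 replicate 1, where 1754 genes were lower over all, against 2178 with all libraries. It was 5, 6 and 5 without MIGA2-KO day 0 replicates 1, 2 and 3, where 1383, 1410 and 1428 genes were lower. Without the 3 libraries that stood apart the count was 23, with a median of -0.22, where 3082 of 12398 genes were lower. With the offsets 8 were lower and 3 were higher, Ndufs3 and Ndufb11 among them, and the median was -0.13. Of the 12279 genes tested, 2122 were then lower and 2670 higher, with a median of 0.0188. The 8 lower members were thus near the share of all genes. In the 4 length groups, shortest first, all genes had medians of -0.354, -0.103, 0.0683 and 0.254 in this contrast.

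The core subunits of the peripheral arm carry the electron path. Ndufv1 (GRCm38 chromosome 19: 4007384 to 4012806, reverse strand) encodes the subunit that binds NADH and the flavin. Ndufv1 measured 421, 386 and 383 CPM in MIGA2-GFP, 227, 220.1 and 216 CPM in MIGA2-KO and 385, 606 and 712 CPM in WT cells at day 6. Ndufv1 at day 0 was counted at 106, 112 and 109 CPM in MIGA2-KO and 185, 119 and 102 CPM in WT cells. Its WT levels at day 6 were the highest but spread widely, and replicate 1 lay among the MIGA2-GFP libraries. Its log2 fold change was 1.02 ± 0.21 (± SE) over time in MIGA2-KO cells (adjusted p = 0.00116, edgeR), 2.07 ± 0.22 in WT cells (adjusted p = 8.92e-07) and -1.36 ± 0.21 between MIGA2-KO and WT cells at day 6 (adjusted p = 8.95e-05). Ndufv2 (GRCm38 chromosome 17: 66078638 to 66101559, reverse strand) encodes its iron-sulfur partner. Ndufv2 was counted at 269, 282 and 288 CPM in MIGA2-GFP, 150.5, 96.8 and 104 CPM in MIGA2-KO and 329, 480.3 and 429.7 CPM in WT cells at day 6. Ndufv2 at day 0 was at 68.5, 66.7 and 58.4 CPM in MIGA2-KO and 139.7, 80.8 and 82.1 CPM in WT cells. The 3 day 6 groups did not overlap. Ndufv2 had the largest difference of the core subunits between MIGA2-KO and WT cells at day 6, a log2 fold change of -1.82 ± 0.22 (adjusted p = 8.75e-06, edgeR), and 1.26 between MIGA2-GFP and MIGA2-KO cells (adjusted p = 0.000278).

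Ndufs1 (GRCm38 chromosome 1: 63143596 to 63176833, reverse strand) encodes the large iron-sulfur subunit next to them. Ndufs1 was at 175, 177 and 169 CPM in MIGA2-GFP, 161, 134 and 146 CPM in MIGA2-KO and 225, 188 and 181 CPM in WT cells at day 6. Ndufs1 at day 0 stood at 64.7, 58.8 and 63.7 CPM in MIGA2-KO and 57.4, 61.5 and 67.1 CPM in WT cells. At day 0 the lines overlapped, and at day 6 the 3 groups were close together, though they did not overlap. It had the longest transcript of the core subunits, 2661 nucleotides, and replicate 1 was the highest, not the lowest, of its WT day 6 libraries. It rose in both lines, by a log2 fold change of 1.24 ± 0.11 in MIGA2-KO (adjusted p = 2.95e-07, edgeR) and 1.67 ± 0.11 in WT cells (adjusted p = 4.3e-09). At day 6 it had the smallest called difference of all members between MIGA2-KO and WT cells, -0.43 ± 0.10 (adjusted p = 0.00271).

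Ndufs7 (GRCm38 chromosome 10: 80249121 to 80256794, forward strand) encodes a subunit near the ubiquinone site that holds the last iron-sulfur cluster of the chain. Ndufs7 stood at 159, 150.3 and 147 CPM in MIGA2-GFP, 62.5, 92.6 and 82.3 CPM in MIGA2-KO and 82.7, 175 and 241 CPM in WT cells at day 6. Ndufs7 at day 0 measured 42.0, 41.1 and 33.0 CPM in MIGA2-KO and 74.9, 48.0 and 32.3 CPM in WT cells. Ndufs7 was the core subunit whose MIGA2-KO and WT levels overlapped at day 6, since WT replicate 1 lay between MIGA2-KO libraries. Its difference at day 6 of -1.07 ± 0.32 was called (adjusted p = 0.0106, edgeR) but was -0.02 with the offsets, which was not.

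Ndufs3 (GRCm38 chromosome 2: 90894634 to 90904827, reverse strand) encodes a subunit that is built in early in assembly. Ndufs3 measured 176, 177 and 182 CPM in MIGA2-GFP, 115, 92.2 and 93.1 CPM in MIGA2-KO and 196, 268 and 296 CPM in WT cells at day 6. Ndufs3 at day 0 was counted at 47.8, 48.9 and 46.1 CPM in MIGA2-KO and 70.1, 47.4 and 44.6 CPM in WT cells. The day 6 groups did not overlap, and its rise was 1.07 ± 0.17 in MIGA2-KO cells (log2, adjusted p = 0.000149, edgeR) and 2.23 ± 0.18 in WT cells (adjusted p = 4.53e-08), the largest of the core subunits there. Ndufs8 (GRCm38 chromosome 19: 3908863 to 3912774, reverse strand) encodes another iron-sulfur subunit. Ndufs8 was counted at 125, 125 and 119.6 CPM in MIGA2-GFP, 66.3, 60.2 and 54.9 CPM in MIGA2-KO and 124, 211 and 218 CPM in WT cells at day 6. Ndufs8 at day 0 was at 53.6, 56.0 and 52.5 CPM in MIGA2-KO and 150.1, 86.1 and 76.2 CPM in WT cells. Ndufs8 had the smallest change over time of the core subunits: WT day 0 replicate 1 lay above WT day 6 replicate 1, and the MIGA2-KO values at day 6 and day 0 overlapped. The log2 fold change was 0.16 ± 0.23 in MIGA2-KO cells, which was not called (adjusted p = 0.609, edgeR), and 0.82 ± 0.23 in WT cells, which was (adjusted p = 0.00538).

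**Figure D5:**
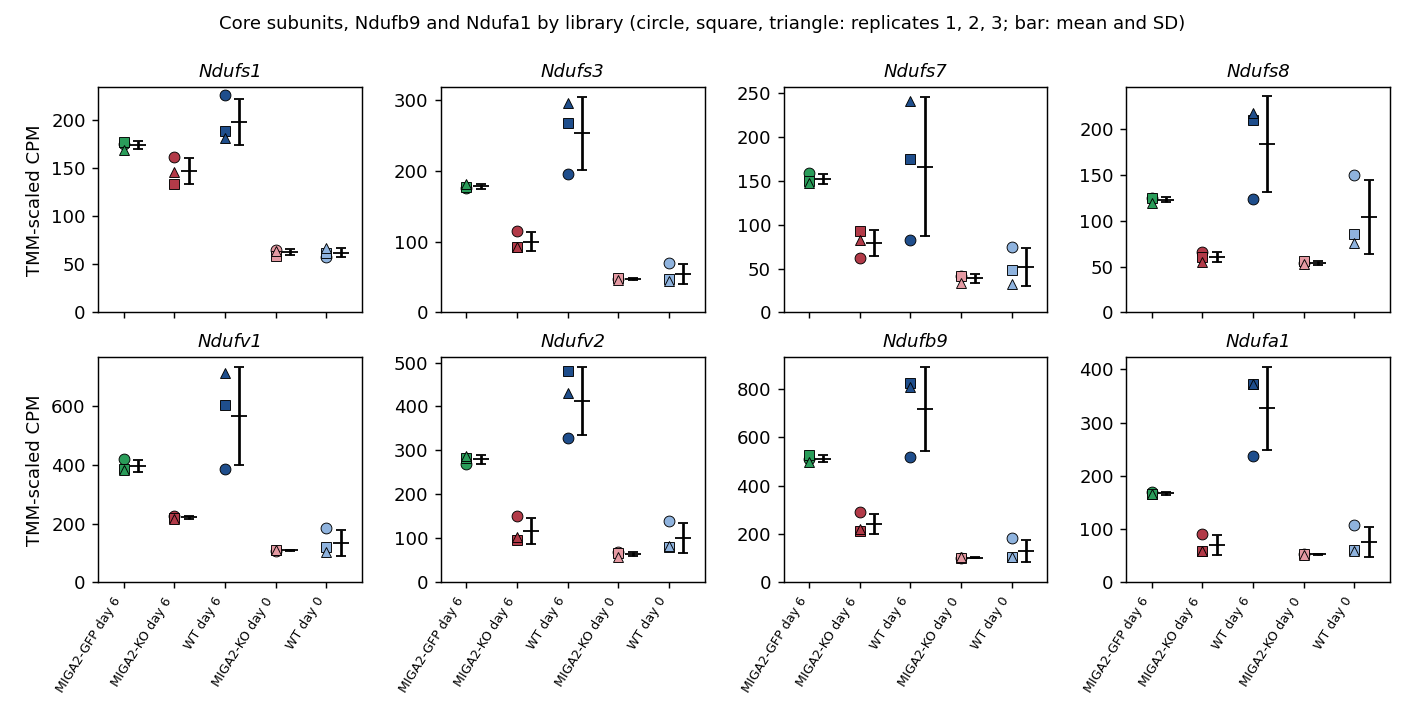
TMM-scaled CPM of core subunits, Ndufb9 and Ndufa1 in each library, 1 panel per gene with its own axis from 0. Circles, squares and triangles are replicates 1, 2 and 3, and bars beside them the mean and SD of a group. MIGA2-GFP points lie close together, WT day 6 points are spread with replicate 1 the lowest except for Ndufs1, and the MIGA2-KO points at day 6 lie below the mean of WT in all 8 panels.

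Accessory subunits surround this core and are needed to assemble or hold it. Ndufab1 (GRCm38 chromosome 7: 122085403 to 122101886, reverse strand) encodes the mitochondrial acyl carrier protein, which also serves mitochondrial fatty acid synthesis. Ndufab1 was at 56.1, 60.5 and 64.0 CPM in MIGA2-GFP, 35.8, 20.9 and 23.9 CPM in MIGA2-KO and 66.5, 105 and 85.8 CPM in WT cells at day 6. Ndufab1 at day 0 stood at 13.0, 13.5 and 12.5 CPM in MIGA2-KO and 22.5, 12.0 and 13.6 CPM in WT cells. The lines overlapped at day 0, and the 3 day 6 groups did not. Ndufab1 rose by 1.05 ± 0.25 in MIGA2-KO cells (log2, adjusted p = 0.00287, edgeR) and by 2.42 ± 0.24 in WT cells (adjusted p = 5.43e-07), where no other member of the peripheral arm rose as much. Its principal transcript is annotated with 3479 nucleotides, and with the offsets, which use that length, its rise in WT cells was 2.56. Yet replicate 1 was its highest WT library at day 0 and its lowest at day 6, as for most members with short transcripts. The isoform in use was not measured, so the value with offsets is uncertain.

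Ndufa2 (GRCm38 chromosome 18: 36742332 to 36744557, reverse strand) encodes a small subunit with a thioredoxin-like fold. Ndufa2 stood at 237, 226 and 225 CPM in MIGA2-GFP, 102, 70.9 and 66.8 CPM in MIGA2-KO and 195, 434 and 472 CPM in WT cells at day 6. Ndufa2 at day 0 measured 57.6, 56.7 and 54.8 CPM in MIGA2-KO and 181, 90.0 and 70.9 CPM in WT cells. Every MIGA2-KO library at day 6 was below every other day 6 library, and WT day 6 replicate 1 was again far below its 2 partners, under the MIGA2-GFP libraries. Ndufa2 had the largest difference of all members between MIGA2-GFP and MIGA2-KO cells, 1.53 ± 0.33 (log2, adjusted p = 0.00171, edgeR), and -2.20 ± 0.34 between MIGA2-KO and WT cells (adjusted p = 7.71e-05). Ndufv3 (GRCm38 chromosome 17: 31520115 to 31531331, forward strand) encodes a small subunit attached to the NADH-binding part. Ndufv3 measured 328, 329 and 327 CPM in MIGA2-GFP, 160.5, 156 and 153 CPM in MIGA2-KO and 413, 689 and 579 CPM in WT cells at day 6. Ndufv3 at day 0 was counted at 82.8, 84.9 and 90.8 CPM in MIGA2-KO and 253, 161 and 145 CPM in WT cells. Ndufv3 was lower in MIGA2-KO cells than in WT cells at both days without overlap. At day 0 the log2 difference was -1.11 ± 0.19 (adjusted p = 0.00069, edgeR), and it was among the 8 members still lower at day 0 with the offsets.

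The other 7 accessory subunits of the peripheral arm followed the same order of day 6 means. Ndufs4, whose loss in mice causes a Leigh-like brain disease, averaged 110.1 ± 4.56 CPM in MIGA2-GFP, 74.9 ± 7.12 in MIGA2-KO and 193 ± 33.3 in WT cells at day 6, and 52.2 ± 1.56 in MIGA2-KO and 78.0 ± 28.2 in WT cells at day 0. Ndufs6, which binds zinc, averaged 97.8 ± 3.81 CPM in MIGA2-GFP, 45.5 ± 6.75 in MIGA2-KO and 163 ± 52.5 in WT cells at day 6, and 30.9 ± 1.29 in MIGA2-KO and 53.2 ± 25.7 in WT cells at day 0. Ndufa9, a nucleotide-binding subunit near the ubiquinone site, averaged 232 ± 8.21 CPM in MIGA2-GFP, 104 ± 29.6 in MIGA2-KO and 328 ± 44.6 in WT cells at day 6, and 68.7 ± 3.91 in MIGA2-KO and 89.2 ± 18.1 in WT cells at day 0. Ndufs4 and Ndufa9 rose in both lines. Ndufs6 passed the test in WT but not in MIGA2-KO cells, and the difference between the lines of -1.05 ± 0.39 was not called (log2, adjusted p = 0.0593, edgeR). Ndufa5 averaged 117 ± 2.10 CPM in MIGA2-GFP, 55.3 ± 13.3 in MIGA2-KO and 194 ± 49.4 in WT cells at day 6, and 28.2 ± 1.65 in MIGA2-KO and 49.3 ± 19.5 in WT cells at day 0. Ndufa6, which holds the acyl carrier protein in place, averaged 157 ± 9.09 CPM in MIGA2-GFP, 81.9 ± 3.87 in MIGA2-KO and 200.2 ± 45.7 in WT cells at day 6, and 61.6 ± 3.67 in MIGA2-KO and 79.4 ± 29.7 in WT cells at day 0. Ndufa7 averaged 219.8 ± 8.30 CPM in MIGA2-GFP, 109 ± 12.1 in MIGA2-KO and 388 ± 118 in WT cells at day 6, and 99.8 ± 6.15 in MIGA2-KO and 202 ± 90.0 in WT cells at day 0. Ndufa12, which takes the place of the assembly factor Ndufaf2 late in assembly, averaged 38.3 ± 2.34 CPM in MIGA2-GFP, 28.8 ± 2.21 in MIGA2-KO and 56.7 ± 11.3 in WT cells at day 6, and 19.4 ± 2.33 in MIGA2-KO and 25.4 ± 8.57 in WT cells at day 0. Ndufa5 and Ndufa12 rose in both lines, while Ndufa6 and Ndufa7 were at 0.41 and 0.12 in MIGA2-KO cells, not called, and rose by 1.33 and 0.94 in WT cells. The difference between the lines was called for Ndufa6, at -0.92, and not for Ndufa7, at -0.82. The rise of Ndufa7 in WT cells was not called with the offsets, where its log2 fold change was -0.0004164.

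Accessory subunits of the membrane arm line the proton pumps. Ndufa1 (GRCm38 chromosome X: 37187588 to 37191163, reverse strand) encodes a very small membrane protein that is required for complex I activity, and with 419 nucleotides it had the shortest transcript of all members. Ndufa1 was counted at 170.5, 166 and 165 CPM in MIGA2-GFP, 91.5, 59.2 and 59.6 CPM in MIGA2-KO and 237, 372 and 372 CPM in WT cells at day 6. Ndufa1 at day 0 was at 53.0, 53.0 and 51.7 CPM in MIGA2-KO and 108, 60.0 and 59.6 CPM in WT cells. WT cells at day 6 stood clear of all other groups. In MIGA2-KO cells at day 6, replicates 2 and 3 were little above the day 0 libraries, and the library labelled replicate 1 was higher. Ndufa1 had the largest difference of all members between MIGA2-KO and WT cells at day 6, -2.22 ± 0.24 (log2, adjusted p = 3.45e-06, edgeR). Its change over time also differed most between MIGA2-KO and WT cells, by -1.70 ± 0.33 (adjusted p = 0.00165).

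Ndufb9 (GRCm38 chromosome 15: 58933756 to 58939488, forward strand) encodes the subunit that holds the other acyl carrier protein, in the membrane arm. Ndufb9 was at 510.1, 525 and 497 CPM in MIGA2-GFP, 290.0, 214 and 221 CPM in MIGA2-KO and 517, 826 and 808 CPM in WT cells at day 6. Ndufb9 at day 0 stood at 102, 101 and 103 CPM in MIGA2-KO and 184, 103 and 103 CPM in WT cells. WT day 6 replicate 1 lay among the MIGA2-GFP libraries and the remaining pair far above. With Ndufs1, Ndufb9 had the largest rise of all members in MIGA2-KO cells, 1.24 ± 0.22 (log2, adjusted p = 0.000308, edgeR), and it had the largest in WT cells, 2.46 ± 0.23 (adjusted p = 2.26e-07). Ndufb7 (GRCm38 chromosome 8: 83566671 to 83571626, forward strand) encodes a subunit facing the intermembrane space. Ndufb7 stood at 132, 124 and 111 CPM in MIGA2-GFP, 49.6, 51.8 and 40.3 CPM in MIGA2-KO and 99.4, 196 and 254 CPM in WT cells at day 6. Ndufb7 at day 0 measured 36.1, 34.3 and 30.2 CPM in MIGA2-KO and 121, 68.8 and 41.3 CPM in WT cells. WT levels were spread so widely that day 0 replicate 1 exceeded day 6 replicate 1, whereas the MIGA2-GFP and MIGA2-KO libraries were clearly apart. Ndufb7 had the largest difference of all members at day 0, -1.20 ± 0.34 between MIGA2-KO and WT cells (log2, adjusted p = 0.0144, edgeR), and was 1.37 ± 0.34 between MIGA2-GFP and MIGA2-KO cells at day 6 (adjusted p = 0.00391).

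Ndufc1 (GRCm38 chromosome 3: 51404677 to 51408988, reverse strand) and Ndufc2 (GRCm38 chromosome 7: 97400003 to 97407802, forward strand) encode subunits that sit together in the membrane arm, and their mRNAs differed in MIGA2-GFP cells. Ndufc1 measured 57.0, 59.9 and 59.4 CPM in MIGA2-GFP, 41.4, 41.9 and 41.5 CPM in MIGA2-KO and 98.0, 148 and 149 CPM in WT cells at day 6. Ndufc1 at day 0 was counted at 26.1, 24.1 and 26.1 CPM in MIGA2-KO and 67.6, 35.0 and 34.6 CPM in WT cells. MIGA2-GFP levels of Ndufc1 were far below WT levels, the largest such difference of all members, at -1.16 ± 0.22 (log2, adjusted p = 0.00121, edgeR). Ndufc2 was counted at 149, 149 and 144 CPM in MIGA2-GFP, 74.2, 67.6 and 63.0 CPM in MIGA2-KO and 83.0, 122 and 169 CPM in WT cells at day 6. Ndufc2 at day 0 was at 31.4, 28.4 and 28.3 CPM in MIGA2-KO and 48.6, 28.3 and 24.2 CPM in WT cells. MIGA2-GFP levels of Ndufc2 lay above 2 of 3 WT libraries, and the difference of 0.24 ± 0.24 was not called (adjusted p = 0.449, edgeR). Apart from Ndufa4l2, Ndufc2 was the only member with a positive value in this comparison. Between MIGA2-KO and WT cells at day 6, Ndufc2 was at -0.87 ± 0.24 (adjusted p = 0.00638), the smallest called difference of the membrane arm, and the sign turned with the offsets, at 0.04341.

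Membrane arm subunits with an Ndufb symbol surround the distal pumps, encoded by mt-Nd4 and mt-Nd5. The other 14 membrane arm subunits had their lowest day 6 mean in MIGA2-KO and their highest in WT cells, and all 14 were called lower in MIGA2-KO cells than in WT cells at day 6. Ndufa10, which resembles a nucleoside kinase, averaged 264 ± 7.54 CPM in MIGA2-GFP, 179 ± 12.7 in MIGA2-KO and 443 ± 62.2 in WT cells at day 6, and 111 ± 5.87 in MIGA2-KO and 130.5 ± 28.4 in WT cells at day 0. Ndufa13, also known as GRIM-19, averaged 310.2 ± 15.5 CPM in MIGA2-GFP, 120.5 ± 18.5 in MIGA2-KO and 429 ± 159 in WT cells at day 6, and 108 ± 3.71 in MIGA2-KO and 222 ± 101 in WT cells at day 0. Ndufa11 averaged 94.8 ± 5.92 CPM in MIGA2-GFP, 48.6 ± 3.30 in MIGA2-KO and 166 ± 60.2 in WT cells at day 6, and 43.9 ± 2.33 in MIGA2-KO and 81.3 ± 39.2 in WT cells at day 0. The spread of Ndufa11 and Ndufa13 in WT cells was so large that their day 6 and day 0 libraries overlapped. Ndufa3 averaged 125 ± 4.21 CPM in MIGA2-GFP, 53.6 ± 13.1 in MIGA2-KO and 203 ± 55.9 in WT cells at day 6, and 46.9 ± 0.915 in MIGA2-KO and 76.9 ± 35.5 in WT cells at day 0. Ndufa8, of the intermembrane space side, averaged 153 ± 1.57 CPM in MIGA2-GFP, 105 ± 3.60 in MIGA2-KO and 278 ± 77.9 in WT cells at day 6, and 74.3 ± 2.51 in MIGA2-KO and 117 ± 46.8 in WT cells at day 0. Ndufs5, also of that side, averaged 21.0 ± 3.20 CPM in MIGA2-GFP, 11.5 ± 3.20 in MIGA2-KO and 36.5 ± 7.44 in WT cells at day 6, and 7.96 ± 0.591 in MIGA2-KO and 11.1 ± 3.62 in WT cells at day 0. Ndufs5 was counted far below Ndufa8 although their transcripts differ little in length, 680 and 861 nucleotides. Ndufb2 averaged 54.6 ± 4.57 CPM in MIGA2-GFP, 41.1 ± 2.57 in MIGA2-KO and 113 ± 31.3 in WT cells at day 6, and 34.6 ± 3.70 in MIGA2-KO and 53.6 ± 21.3 in WT cells at day 0. Ndufb3 averaged 114 ± 5.50 CPM in MIGA2-GFP, 55.0 ± 9.13 in MIGA2-KO and 207 ± 37.8 in WT cells at day 6, and 25.8 ± 2.42 in MIGA2-KO and 38.9 ± 12.8 in WT cells at day 0. Ndufb4 averaged 25.6 ± 0.921 CPM in MIGA2-GFP, 14.7 ± 3.00 in MIGA2-KO and 52.3 ± 13.5 in WT cells at day 6, and 8.80 ± 0.527 in MIGA2-KO and 14.2 ± 5.66 in WT cells at day 0. Ndufb3 had the third largest rise of all members in WT cells, 2.41, and Ndufb2 the longest transcript of all, 4371 nucleotides. Ndufb5 averaged 158 ± 5.93 CPM in MIGA2-GFP, 99.5 ± 8.55 in MIGA2-KO and 237 ± 59.2 in WT cells at day 6, and 55.5 ± 0.574 in MIGA2-KO and 72.4 ± 28.9 in WT cells at day 0. Ndufb6 averaged 90.4 ± 3.29 CPM in MIGA2-GFP, 37.2 ± 1.65 in MIGA2-KO and 140.2 ± 39.5 in WT cells at day 6, and 25.1 ± 3.43 in MIGA2-KO and 41.0 ± 16.4 in WT cells at day 0. Ndufb8 averaged 436 ± 9.98 CPM in MIGA2-GFP, 178 ± 42.9 in MIGA2-KO and 552 ± 123 in WT cells at day 6, and 77.2 ± 3.23 in MIGA2-KO and 114 ± 35.6 in WT cells at day 0. Ndufb8, often used as a protein marker of assembled complex I, rose in MIGA2-KO cells by 1.21 ± 0.21 (log2, adjusted p = 0.00032, edgeR) and in WT cells by 2.27 ± 0.22 (adjusted p = 3.58e-07). Ndufb10 averaged 265 ± 10.8 CPM in MIGA2-GFP, 159 ± 3.67 in MIGA2-KO and 349 ± 93.7 in WT cells at day 6, and 70.4 ± 3.70 in MIGA2-KO and 103 ± 42.4 in WT cells at day 0. Ndufb11 averaged 195 ± 3.65 CPM in MIGA2-GFP, 110.0 ± 3.63 in MIGA2-KO and 315 ± 93.5 in WT cells at day 6, and 82.5 ± 2.91 in MIGA2-KO and 98.1 ± 34.5 in WT cells at day 0. Ndufb10 also rose in both lines, by 1.17 in MIGA2-KO and 1.76 in WT cells. Ndufb11 was at 0.41 in MIGA2-KO cells, not called, and rose by 1.69 in WT cells, and the difference was called at -1.27.

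Some of these genes overlap an annotated gene on the same strand: Ndufb2 with Gm42420, Ndufb8 with Gm20538, Ndufb9 with Gm49356 and Ndufa13 with Yjefn3. Summed over the 15 libraries, these partners held 9569, 21829, 22963 and 1271 counts. How reads shared by overlapping genes were assigned is not stated in the sources used here, so levels of these 4 members are uncertain. Ndufs1 overlaps Eef1b2 on the opposite strand, a gene with 224356 counts, and the sources used here do not give the strand setting of the counting. Other members overlap genes on the opposite strand too, such as Ndufaf3 with Impdh2 and Ndufa4l2 with Shmt2.

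Assembly factors help build the complex and leave it when it is complete, and per length of transcript their mRNAs were scarcer, as given below. Ndufaf6, a factor for the early membrane part, was at 5.98, 5.12 and 6.47 CPM in MIGA2-GFP, 5.04, 3.30 and 4.79 CPM in MIGA2-KO and 11.6, 14.0 and 12.2 CPM in WT cells at day 6. Ndufaf6 at day 0 stood at 2.57, 2.68 and 2.11 CPM in MIGA2-KO and 5.00, 2.71 and 2.86 CPM in WT cells. WT cells at day 6 were above all other groups. Ndufaf6 rose in WT cells by 1.85 ± 0.23 (log2, adjusted p = 5.07e-06, edgeR) and was -1.11 ± 0.23 between MIGA2-GFP and WT cells (adjusted p = 0.00233), the largest such difference after Ndufc1. Ndufaf4, which works with Ndufaf3 on the ubiquinone-binding module, stood at 13.7, 12.4 and 13.6 CPM in MIGA2-GFP, 10.9, 8.65 and 8.19 CPM in MIGA2-KO and 19.8, 16.1 and 18.5 CPM in WT cells at day 6. Ndufaf4 at day 0 measured 6.66, 6.50 and 5.19 CPM in MIGA2-KO and 6.18, 5.83 and 6.38 CPM in WT cells. At day 0 the lines overlapped, and at day 6 MIGA2-KO levels lay below WT levels, with a log2 fold change of -0.97 ± 0.15 (adjusted p = 6.93e-05, edgeR). Like Ndufs1, Ndufaf4 has a long transcript (3632 nucleotides) and did not have replicate 1 as the lowest WT day 6 library; with the offsets the value was -1.57.

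Ndufaf2, which acts late on the peripheral arm, measured 14.7, 11.3 and 7.71 CPM in MIGA2-GFP, 8.87, 6.76 and 7.84 CPM in MIGA2-KO and 17.9, 23.2 and 25.9 CPM in WT cells at day 6. Ndufaf2 at day 0 was counted at 8.27, 8.56 and 7.79 CPM in MIGA2-KO and 17.2, 9.18 and 8.91 CPM in WT cells. MIGA2-KO levels at the 2 days overlapped, with a log2 fold change of -0.07 ± 0.28 (adjusted p = 0.867, edgeR), and WT levels did not overlap, with 0.93 ± 0.26 (adjusted p = 0.00521). Ndufaf2 was also the member with the most uneven MIGA2-GFP libraries apart from Ndufa4l2. Ndufaf5, which modifies an arginine of the Ndufs7 protein, was counted at 9.14, 8.70 and 7.04 CPM in MIGA2-GFP, 8.09, 7.42 and 9.58 CPM in MIGA2-KO and 11.7, 16.4 and 15.1 CPM in WT cells at day 6. Ndufaf5 at day 0 was at 6.82, 7.72 and 6.97 CPM in MIGA2-KO and 14.3, 7.83 and 8.37 CPM in WT cells. Ndufaf5 was the assembly factor whose MIGA2-GFP and MIGA2-KO levels were nearest, at -0.01 ± 0.23 (log2, adjusted p = 0.983, edgeR), and both lay below WT at day 6. WT libraries overlapped between the days, and the rise of 0.50 ± 0.21 was not called (adjusted p = 0.051).

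Ndufaf1, a core factor of membrane arm assembly, averaged 23.9 ± 1.23 CPM in MIGA2-GFP, 19.4 ± 1.08 in MIGA2-KO and 49.1 ± 8.56 in WT cells at day 6, and 12.2 ± 0.294 in MIGA2-KO and 13.3 ± 3.36 in WT cells at day 0. Ndufaf3 averaged 20.0 ± 0.815 CPM in MIGA2-GFP, 12.2 ± 1.75 in MIGA2-KO and 23.5 ± 7.90 in WT cells at day 6, and 11.8 ± 0.466 in MIGA2-KO and 15.4 ± 6.93 in WT cells at day 0. Ndufaf7, a methyltransferase of the matrix, averaged 48.4 ± 1.74 CPM in MIGA2-GFP, 34.0 ± 0.831 in MIGA2-KO and 81.2 ± 7.88 in WT cells at day 6, and 25.2 ± 1.18 in MIGA2-KO and 34.0 ± 7.33 in WT cells at day 0. Ndufaf3, the partner of Ndufaf4, was not called over time in either line. Ndufaf1 and Ndufaf7 rose in both lines and were called lower in MIGA2-KO and in MIGA2-GFP than in WT cells at day 6. Ndufaf8, the partner of Ndufaf5, averaged 10.9 ± 1.28 CPM in MIGA2-GFP, 6.58 ± 1.02 in MIGA2-KO and 11.6 ± 5.11 in WT cells at day 6, and 5.67 ± 1.34 in MIGA2-KO and 9.11 ± 3.97 in WT cells at day 0. Ndufaf8 was called in none of the 7 comparisons (edgeR), and its nearest was -0.81 ± 0.34 between MIGA2-KO and WT cells at day 6 (adjusted p = 0.0533).

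Ndufa4 (GRCm38 chromosome 6: 11900292 to 11907497, reverse strand) encodes a subunit of complex IV, cytochrome c oxidase, although it was first described in complex I. Ndufa4 was at 428, 429 and 419.5 CPM in MIGA2-GFP, 287, 203 and 205 CPM in MIGA2-KO and 564, 845 and 774 CPM in WT cells at day 6. Ndufa4 at day 0 stood at 193, 202 and 196 CPM in MIGA2-KO and 417, 223 and 248 CPM in WT cells. It moved like the complex I subunits, with WT highest and MIGA2-KO lowest at day 6. The log2 fold change was 0.23 ± 0.21 over time in MIGA2-KO cells, not called (adjusted p = 0.401, edgeR), 1.30 ± 0.21 in WT cells (adjusted p = 8.13e-05) and -1.65 ± 0.22 between MIGA2-KO and WT cells at day 6 (adjusted p = 1.92e-05). Its relative Ndufa4l2 (GRCm38 chromosome 10: 127514967 to 127517154, forward strand) is known as a target of the hypoxia factor HIF1. Ndufa4l2 stood at 0.683, 0.611 and 0.190 CPM in MIGA2-GFP, 0.609, 0.165 and 0.174 CPM in MIGA2-KO and 0.181, 0.487 and 0.582 CPM in WT cells at day 6. Ndufa4l2 at day 0 measured 1.20, 0.765 and 0.568 CPM in MIGA2-KO and 1.79, 0.779 and 1.45 CPM in WT cells. Ndufa4l2 was close to 0 throughout, its day 6 groups overlapped, and it was the only member to fall in WT cells, by 1.66 ± 0.54 (log2, adjusted p = 0.0146, edgeR). In MIGA2-KO cells it was at -1.41 ± 0.62 (adjusted p = 0.0824), called lower with the offsets, at -1.60, or, at -2.26, once the library labelled MIGA2-KO day 6 replicate 1 was left out.

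Set against transcript length, levels differed widely between members. In WT cells at day 6 the highest mean was 1193 CPM per kilobase, for Ndufa4, followed by 1018 for Ndufb9 and 812 for Ndufb8, and the lowest were 0.446 for Ndufa4l2 and 5.0 for Ndufaf4. The median over the assembly factors was 15.3 CPM per kilobase, against 242 for the core subunits and 257 and 294 for the accessory subunits of the peripheral and membrane arms. In MIGA2-KO cells at day 6 the same medians were 8.3, 80.5, 76.2 and 92.2, and in MIGA2-GFP cells 13.7, 165, 166 and 178. At day 0 they were 7.62, 45.5, 50.9 and 54.8 in MIGA2-KO and 9.75, 59.4, 77.7 and 108 in WT cells. Assembly factors thus stood below the subunits by their group medians in all 5 groups. These lengths are of 1 principal transcript per gene, and the isoforms in use were not measured.

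The mitochondrially encoded subunits differed from their nuclear partners at day 0. Of the 7 mt-Nd genes 5 passed the filter, and mt-Nd3 and mt-Nd4l held at most 2 counts in any library. Of the 5, 3 rose in MIGA2-KO cells, with a median log2 fold change of 0.347, and all 5 in WT cells, with a median of 2.01. Of all genes tested, 23.3% and 31.7% rose in these lines. At day 0 all 5 were higher in MIGA2-KO cells than in WT cells, with a median of 1.10, where 16.1% of all genes were higher. In the same fit 0 nuclear members were higher, while 3 were with the offsets. mt-Nd1 measured 14440, 14610 and 14350 CPM in MIGA2-GFP, 20450, 20420 and 19510 CPM in MIGA2-KO and 25300, 19290 and 19930 CPM in WT cells at day 6. mt-Nd1 at day 0 was counted at 7978, 8188 and 7900 CPM in MIGA2-KO and 3409, 3455 and 4380 CPM in WT cells. These levels were higher in MIGA2-KO cells than in WT cells at day 0 and overlapped at day 6, with log2 differences of 1.10 ± 0.13 (adjusted p = 3.2e-05, edgeR) and -0.10 ± 0.13 (adjusted p = 0.526). mt-Nd4 was counted at 7680, 7757 and 7932 CPM in MIGA2-GFP, 6101, 4979 and 4875 CPM in MIGA2-KO and 11310, 10070 and 8025 CPM in WT cells at day 6. mt-Nd4 at day 0 was at 4301, 4178 and 4068 CPM in MIGA2-KO and 2328, 2406 and 2556 CPM in WT cells. At day 6, mt-Nd4 was lower in MIGA2-KO cells than in WT cells without overlap, at -0.88 ± 0.13 (log2, adjusted p = 4.66e-05, edgeR), and mt-Nd6 was called lower too, at -0.75. The WT libraries were uneven here as well: mt-Nd5 held 11520, 4445 and 3659 CPM at day 6 and 929.8, 3010 and 3399 CPM at day 0.

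Other complex I assembly factors were taken from a list of 11, of which 10 were matched in the files and all 10 tested. Of these, 6 rose in MIGA2-KO cells and 8 in WT cells, where 23.3% and 31.7% of all genes rose. Foxred1, an oxidoreductase needed for assembly, rose most, by 2.23 ± 0.12 in WT cells (log2, adjusted p = 5.61e-10, edgeR). At day 6, 6 were lower in MIGA2-KO cells than in WT cells and 1 was higher, where 31.5% of all genes were lower and 29.2% higher. The higher one was Tmem126b, a membrane arm factor, with 33.3 ± 1.41 CPM in MIGA2-KO and 27.0 ± 3.37 CPM in WT cells (log2 difference 0.30 ± 0.10, adjusted p = 0.0187). Acad9 and Ecsit, which act with it, were lower, at -0.48 and -1.06.

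Subunits of the other respiratory complexes were also lower in MIGA2-KO cells than in WT cells at day 6. This held for 4 of 4 genes of complex II, 9 of 9 of complex III, 12 of 12 of complex IV and 16 of 17 of ATP synthase, with median log2 fold changes of -0.715, -1.69, -1.85 and -1.16. Of all genes tested 31.5% were lower, with a median of -0.0101. These values are without offsets, which were not taken for the other complexes, and the contrast runs with transcript length, as given above. The median of -1.52 over the Nduf genes lies within this range. Over time in WT cells the medians were 1.63, 2.44, 2.15 and 1.38, beside 1.64 for the Nduf genes.

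Of 12 tested regulators known to act on mitochondrial genes, 6 rose and 1 fell in MIGA2-KO cells over time, where 23.3% of all genes rose and 21.0% fell. In WT cells 5 rose and 4 fell, where 31.7% of all genes rose and 33.1% fell. Between MIGA2-KO and WT cells at day 6, 4 were higher and 3 lower, where 29.2% of all genes were higher and 31.5% lower. In WT cells over time and at day 6 these shares are near those of all genes. Esrra, a nuclear receptor that drives oxidative metabolism genes, was at 91.9, 85.7 and 83.2 CPM in MIGA2-GFP, 38.4, 40.9 and 38.1 CPM in MIGA2-KO and 58.9, 89.5 and 119 CPM in WT cells at day 6. Esrra at day 0 stood at 20.9, 18.5 and 17.9 CPM in MIGA2-KO and 34.3, 30.6 and 20.3 CPM in WT cells. Esrra was lower in every MIGA2-KO library at day 6 than in any MIGA2-GFP or WT library of that day, with a log2 fold change of -1.19 ± 0.21 against WT (adjusted p = 0.000302, edgeR). Ppargc1a, the coactivator PGC-1alpha, stood at 2.48, 1.76 and 2.67 CPM in MIGA2-GFP, 9.65, 11.0 and 9.93 CPM in MIGA2-KO and 2.17, 1.07 and 1.17 CPM in WT cells at day 6. Ppargc1a at day 0 measured 4.57, 3.90 and 4.70 CPM in MIGA2-KO and 3.16, 6.17 and 8.74 CPM in WT cells. Ppargc1a was highest where the Nduf genes were lowest at day 6: it was 2.78 ± 0.35 between MIGA2-KO and WT cells (log2, adjusted p = 1.59e-05, edgeR) and -2.16 ± 0.33 between MIGA2-GFP and MIGA2-KO cells (adjusted p = 0.000119). Its relative Ppargc1b rose in both lines, by 2.85 in MIGA2-KO and 3.28 in WT cells, and was at -0.03 between MIGA2-KO and WT cells at day 6 (adjusted p = 0.935).

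The promoters of the members were searched for short motifs of 3 factors known for mitochondrial genes. Of 46 members 40 matched a promoter window in RefSeq (GRCm38.p6), from 250 bases before to 50 after the start. On either strand, GCGCATGCG, the NRF1 motif, was found in 4 of 40 (10.0%) and in 1.95% of 27025 genes. CCGGAAG, the ETS family motif that GABP also binds, was found in 6 of 40 (15%) and in 9.93% of genes. AAGGTCA, the core motif of the receptors of the Esrra family, was found in 3 of 40 (7.5%) and in 5.38% of genes. The NRF1 motif is nearly its own reverse complement, so a longer match counts on both strands. Holders of the NRF1 motif were Ndufa8, Ndufa11, Ndufaf4 and Ndufaf5, of which the first 3 rose in WT cells by 1.25, 1.03 and 1.57, while Ndufaf5 was at 0.50, not called. A match describes these letters only, and members without one rose as well. Below are the 200 bases before the start of 1 member for each motif, chosen after the matches were seen, written 5′ to 3′ on the gene's strand with the match in capitals. In these, the NRF1 match starts 60 bases before the start of Ndufa11, the ETS match 18 before that of Ndufaf1 and the Esrra family match 181 before that of Ndufb2. The 3 windows are chr17:56717562-56717761 on the forward strand, chr2:119662835-119663034 on the reverse strand and chr6:39592365-39592564 on the forward strand.
Ndufa11: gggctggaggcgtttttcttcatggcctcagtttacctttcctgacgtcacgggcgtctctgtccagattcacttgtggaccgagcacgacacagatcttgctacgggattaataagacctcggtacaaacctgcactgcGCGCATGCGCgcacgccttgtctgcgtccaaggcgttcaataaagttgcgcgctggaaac
Ndufaf1: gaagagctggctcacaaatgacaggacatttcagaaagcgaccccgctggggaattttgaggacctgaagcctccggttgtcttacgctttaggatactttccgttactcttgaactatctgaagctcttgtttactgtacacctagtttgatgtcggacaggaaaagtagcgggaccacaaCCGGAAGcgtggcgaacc
Ndufb2: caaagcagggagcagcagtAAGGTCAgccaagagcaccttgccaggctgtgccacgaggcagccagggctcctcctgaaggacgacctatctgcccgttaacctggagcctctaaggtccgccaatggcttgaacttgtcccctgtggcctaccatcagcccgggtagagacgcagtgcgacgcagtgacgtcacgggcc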

How the data were processed

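RNA was purified with a column kit and made into stranded libraries, per the labels' protocols. The authors deposited raw read counts per gene and library; the submitters' processing notes name bcl2fastq 2.19, Trimmomatic, STAR 2.5.4b, featureCounts, edgeR and the build GRCm38.p5. The sources used here do not give the strand setting, the annotation release or the handling of multimapping reads. Identifiers were matched to GENCODE vM21 (GRCm38) for symbols, positions and transcript lengths, and 36 had no symbol.

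Counts were tested with edgeR 4.0.16 (R 4.3.3): filterByExpr with a minimum count of 10 and a minimum total of 15 kept 12279 of 25700 genes. TMM scaling, 1 quasi-likelihood fit over 15 libraries with a term per group and Benjamini-Hochberg adjustment over all tested genes followed, with calls at an adjusted p under 0.05. The biological coefficient of variation was 15.96%, and each SE was taken as the absolute log2 fold change over the root of its F statistic. Library totals were at least 10748668 counts. Counting error weighs most on members with few counts, such as Ndufa4l2 and Ndufaf6 (26 to 144 counts per library).

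Alternatives were other scalings, no filter on low counts, the groups of a comparison alone, DESeq2 1.42.0, the replicate number as a block, each library left out, the 3 libraries that stood apart left out, and offsets from mgcv 1.9.3 smooths (basis size 8) of log counts on log2 transcript length and GC content. Offsets fitted within each group were added after seeing the data. Members, lists, tests and alternatives were chosen with earlier results of these data known. Every member was to be named with its group levels, and core subunits, the members with the 2 largest positive and 2 largest negative fold changes in a comparison, those highest and lowest per length, Ndufa4 and Ndufa4l2 were to be given by sample. The values of 1 member are not reported here; it enters the counts and medians over all members. Promoter windows are from RefSeq (GRCm38.p6).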

Additional observations from a re-analysis of the deposited data

Results flagged for a closer look

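The change over time differed between MIGA2-KO and WT cells, by a test of the difference itself, for 25 of 46 Nduf genes (edgeR, adjusted p under 0.05). In all 25 the rise was smaller in MIGA2-KO cells, and the values below, for 24 of them, are the log2 change in MIGA2-KO minus that in WT cells. Among core subunits the difference was -1.176 for Ndufv2, -1.154 for Ndufs3, -1.045 for Ndufv1 and -0.4387 for Ndufs1. Among accessory subunits of the peripheral arm it was -1.375 for Ndufab1, -1.277 for Ndufa9, -1.01 for Ndufa5, -0.9227 for Ndufa6 and -0.7877 for Ndufs4. In the membrane arm it was -1.696 for Ndufa1, -1.321 for Ndufb3, -1.271 for Ndufb11, -1.217 for Ndufb9 and -1.21 for Ndufb6, and also -1.209 for Ndufa3, -1.2 for Ndufs5, -1.14 for Ndufb4, -1.074 for Ndufa10 and -1.065 for Ndufb8. Among assembly factors it was -1.215 for Ndufaf1, -1.019 for Ndufaf6, -0.9687 for Ndufaf4 and -0.8272 for Ndufaf7, and Ndufa4 had -1.065. Any of these rests on 12 libraries, including the uneven WT ones, whose part in the result was not tested beyond leaving them out. Dixon's test for outlying values was not run, since all groups hold 3 libraries.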

How the results depend on the processing

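Directions over the members held under nearly all alternatives, while counts near the threshold moved. With transcript length and GC offsets, 1 member fell over time in MIGA2-KO cells, 1 was higher and 16 lower in MIGA2-GFP than in WT cells, and 3 were higher and 8 lower in MIGA2-KO cells than in WT cells at day 0. With the replicate block and these offsets together, these counts were 1, 1 and 16, and 2 and 7. The replicate block alone left 9 members lower at day 0. Same-numbered libraries of different groups correlated at -0.723 to 0.125 in their deviations, so the numbers were not taken to pair them. Without TMM, on total counts, 17 members were lower in MIGA2-GFP than in WT cells and 13 had the smaller change in MIGA2-KO cells. That scaling shifted the median of all genes by 0.181 in MIGA2-GFP against WT cells, 0.239 in MIGA2-KO against WT cells at day 6, -0.149 at day 0, -0.433 over time in WT cells and 0.393 in the difference of changes. It put the share of called genes that were higher at 69.6%, 63.6%, 28.1%, 29.6% and 82.6%, against 46.6%, 48.1%, 47.6%, 48.9% and 50.1% with TMM. A fit of the 2 groups of the comparison alone left 5 members lower at day 0. Without the 3 libraries that stood apart, 0 members fell in WT cells and 1 in MIGA2-KO cells, 44 had the smaller change in MIGA2-KO cells, and the genes called over all were 7625 in MIGA2-GFP against WT cells and 7655 for the difference of changes. Offsets within groups, chosen after seeing the data, gave 33 members lower at day 0, 41 with the smaller change and 5104 genes called for the difference of changes. The cause of these shifts was not tested.

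Leaving out 1 library at a time gave 26 to 34 members higher and 0 lower in MIGA2-GFP than in MIGA2-KO cells (4648 to 5992 genes called). It gave 0 higher and 15 to 40 lower in MIGA2-GFP than in WT cells (2759 to 5419 genes), and 0 higher and 41 to 45 lower in MIGA2-KO cells than in WT cells at day 6 (6456 to 8018). At day 0 it gave 0 higher and 4 to 23 lower (2809 to 4707 genes), the highest without WT day 0 replicate 3 and 22 without replicate 2. Over time it gave 19 to 24 higher and 0 to 1 lower in MIGA2-KO cells (4516 to 4893 genes), 41 to 44 higher and 0 to 1 lower in WT cells (7239 to 8860), and 0 with the larger and 17 to 42 with the smaller change in MIGA2-KO cells (2541 to 5186).

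Among single members, 4650 values kept their side of the threshold, 249 newly passed it and 401 no longer did. The 4650 include changes of sign that were called neither before nor after. Ndufa4l2 and Ndufaf8 with offsets, in MIGA2-KO against WT cells at day 6, were of this kind. Another 6 values changed sign and were called before or after the change of setting. With offsets, Ndufa7 was at -0.0004164 over time in WT cells, Ndufc2 at 0.04341 (0.04692 with the block) in MIGA2-KO against WT cells at day 6, and Ndufb11 at 0.2598 and Ndufs3 at 0.2834 (0.2838) at day 0.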
